A study of Mus musculus with 6 samples.

Results

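Histone genes were compared between the spleens of female BALB/c mice given lead (Pb, 0.1 mM) since gestation day 8 and those of control females, all taken at postnatal day 21. The labels give 3 Pb and 3 control animals, with 1 CodeLink mouse whole genome array each, read in 1 colour. The labels name BALB/c and no transgene or other treatment, and do not state the route of exposure. The probes were chosen by gene symbol alone, as those with a single symbol of the H1f, H2ac, H2bc, H3c or H4c series (formerly Hist1h to Hist4h), outside the last array rows, where the arrays do not follow each other. This gave 26 probes for 25 genes, of 35587 probes on the array: 8 for the linker histone H1, 4 for H2A, 6 for H2B, 3 for H3 and 5 for H4.

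Nucleosomes are spools of the core histones H2A, H2B, H3 and H4 around which DNA is wound, and H1 binds the DNA that enters and leaves them. The replication-dependent genes supply histones while DNA is copied in S phase. Their messages normally end in a stem-loop, bound by the protein Slbp, and not in a poly(A) tail. Spleens of young mice hold dividing red cell precursors and lymphocytes, which need such histones. How the RNA was primed is not given in the sources used here, so it is not known how far stem-loop messages were copied onto these arrays.

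The symbol series is wider than its usual name. H1f6 and H1f7 are linker histones of male germ cells, H1f8 is that of the oocyte, H1f10 is a replication-independent linker histone, and H2ac1 is a testis H2A. These 5 are kept as members, and 21 probes belong to genes known as replication-dependent. In RefSeq (GRCm38.p6) 20 of the 25 genes lie on chromosome 13, 2 on chromosome 3, 2 on chromosome 6 and 1 on chromosome 15. Histone genes of a class are close copies of each other, so a probe may bind the messages of several.

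The promoters show what this family shares. RefSeq promoters (GRCm38.p6) were matched for 23 of the 25 genes, and 3 motifs were searched on both strands of the 250 bases before the start. TATAAA, the letters of a TATA box, was found at any position there in 11 of 18 replication-dependent members and 1 of 5 others. It was found in 13% of 27025 promoters. In H2bc22, H4c18 and H2ac8 it was not in the 120 bases nearest the start. The search takes these exact letters alone, so other forms of the box are not counted. CCAAT was found in 15 of 18 and 3 of 5, against 34.5%. ATTTGCAT, the octamer element known from H2B promoters, was found in 2 of 5 H2B genes and in 3 of 18 other members, against 1.61%. Those other members are the H2A genes H2ac8, H2ac6 and H2ac1. The octamer and TATAAA of H2bc8 also lie within the 250 bases before its neighbour H2ac8, so these sites count for both genes. The 120 bases before the start follow for the 5 replication-dependent members whose Pb and control arrays did not overlap (H1f1, H1f5, H2bc22, H2bc9 and H3c4) and for the H2B genes with the octamer (H2bc18 and H2bc8). Capitals mark the motifs on either strand.
H1f1, chr13:23763548-23763667, plus strand: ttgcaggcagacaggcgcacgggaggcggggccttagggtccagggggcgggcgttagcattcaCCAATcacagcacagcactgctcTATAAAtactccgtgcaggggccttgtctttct
H1f5, chr13:21780626-21780745, minus strand: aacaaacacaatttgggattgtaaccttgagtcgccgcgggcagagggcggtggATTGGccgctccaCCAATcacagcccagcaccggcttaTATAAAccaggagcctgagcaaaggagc
H2bc22, chr13:21787368-21787487, plus strand: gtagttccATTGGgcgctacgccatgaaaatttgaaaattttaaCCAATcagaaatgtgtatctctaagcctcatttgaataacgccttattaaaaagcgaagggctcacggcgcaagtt
H2bc9, chr13:23543445-23543564, minus strand: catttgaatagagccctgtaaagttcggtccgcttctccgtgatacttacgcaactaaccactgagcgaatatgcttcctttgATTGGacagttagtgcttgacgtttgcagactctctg
H3c4, chr13:23575643-23575762, plus strand: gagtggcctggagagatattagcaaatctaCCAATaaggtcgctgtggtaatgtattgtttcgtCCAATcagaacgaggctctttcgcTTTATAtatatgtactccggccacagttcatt
H2bc18, chr3:96269580-96269699, plus strand: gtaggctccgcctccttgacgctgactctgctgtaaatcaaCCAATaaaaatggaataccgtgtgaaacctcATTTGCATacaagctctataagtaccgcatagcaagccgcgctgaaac
H2bc8, chr13:23571280-23571399, plus strand: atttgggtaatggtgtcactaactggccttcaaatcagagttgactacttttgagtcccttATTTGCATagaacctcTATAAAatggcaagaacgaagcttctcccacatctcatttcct
The windows of H2bc22 and H2bc9 hold CCAAT, on either strand, but not the other motif letters, while that of H2bc18 holds CCAAT and the octamer. A match describes these letters and shows no binding.

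Pb replicate 3 was left out, since across probes its values had r = 0.05 with the controls, against 0.95 between controls. Values are therefore from Pb replicates 1 and 2 and control replicates 1 to 3, on the log2 scale after correction for position on the array, where 0 is about the median of an array. Pb replicate 2 had r of 0.66 to 0.67 with the controls before that correction and 0.92 after it, and its scaled deviations stayed wider, at 0.59 against 0.24 to 0.30 in the other arrays. All 13 measured B cell genes and all 13 measured T cell genes passed the filter on dim probes. So did 6 of 12 testis germ cell genes, so passing it does not show that a gene was expressed. The pancreatic exocrine list moved with the groups. Of its 24 tested genes, 11 were higher in Pb past the adjusted threshold and 0 lower. The summed level of its 27 genes was 228 and 342 in Pb, against 30.3 to 33.7 in controls. As deposited, 0 of its 27 probes were at or under 0, and its lowest single value was an intensity of 0.0133. Amy2a5, an amylase, had a log2 difference of 7.84, Cpa1, a carboxypeptidase, one of 6.98, and Try5, a trypsin, one of 7.24, each with a limma adjusted p of 0.00906. Their control means were -3.86, -2.46 and -2.54, under the filter level of -1.56. They passed the filter only through their Pb values, as did Cela3b and Cpb1, so these adjusted p support nothing. Sycn, also among the 11, had a control mean of 0.79. With the filter on the control mean, 5 probes of the whole array passed the adjusted threshold, against 15 here. Whether this shift of the pancreatic list has a part in the histone values was not tested. In whole spleen, fewer cells of a type and less RNA per cell cannot be told apart.

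No histone probe differed between Pb and control past the adjusted threshold. Of the 26 probes, 14 passed the filter on dim probes (mean level at or above the 30th percentile, a log2 level of -1.56) and were tested, and 0 passed an adjusted p of 0.05 (limma, Benjamini-Hochberg over all 24464 probes tested), where 0.0613% of all tested probes did. Their log2 differences lay between -0.64 and 1.12 and their adjusted p between 0.622 and 0.99. Of the 14, 2 had a control mean under the filter level and passed it through their higher Pb values, those of H2bc22 and H1f5. With the filter set on the control mean neither was tested, so their differences are given as values and support nothing. At an unadjusted p of 0.05 there was 1 higher, H2bc22 itself, with a background of 3.88% of probes, and 0 lower, with a background of 3.3%. The 12 probes under the filter had differences from -1.79 to 0.55. The median difference over all 26 was 0.03, and over all probes it was also 0.03.

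**Figure D1:**
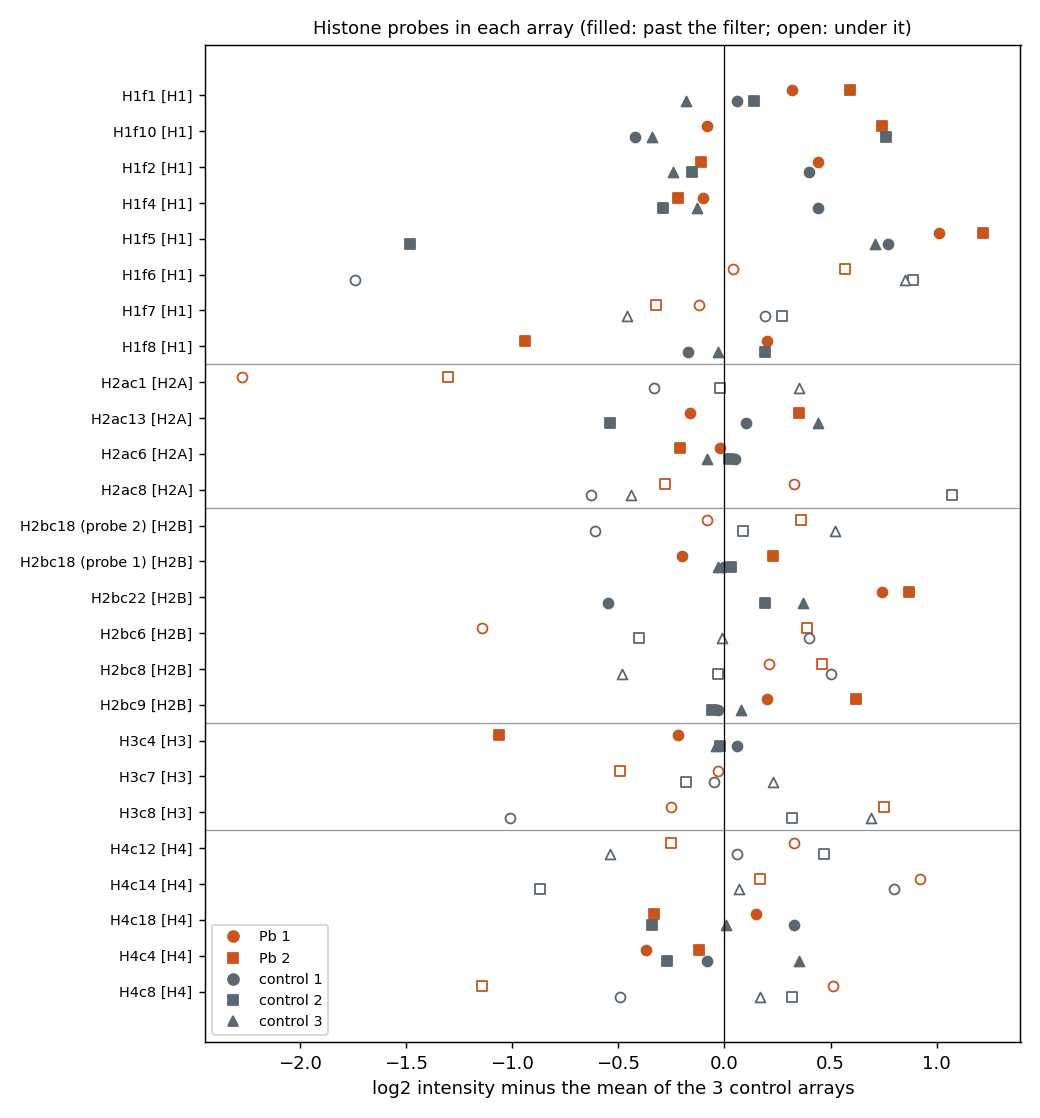
Each row is 1 histone probe, with its class in brackets, and each point is 1 array, as log2 intensity minus the mean of the 3 control arrays (orange, Pb; grey, control; filled, past the filter on dim probes; open, under it). The Pb points are not set apart from the control points in 20 of the 26 rows.

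For 4 of the 26 probes (15.4%) the lower Pb value exceeded the highest control value, which held for 13% of all probes. For 2 (7.69%) the higher Pb value was under the lowest control value, which held for 11.9% of all probes. Neither share is far from its background. The 4 probes above were those of H1f1, H1f5, H2bc22 and H2bc9, and the 2 below those of H3c4 and H2ac1.

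The 95% interval of the difference lay within 1 log2 unit (a 2-fold change) either way for 9 of the 14, as it did for 70% of all tested probes. The other 5 were the probes of H1f5, H2bc22, H1f10, H1f8 and H3c4. Standard errors of the difference lay between 0.17 and 0.70.

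**Figure D2:**
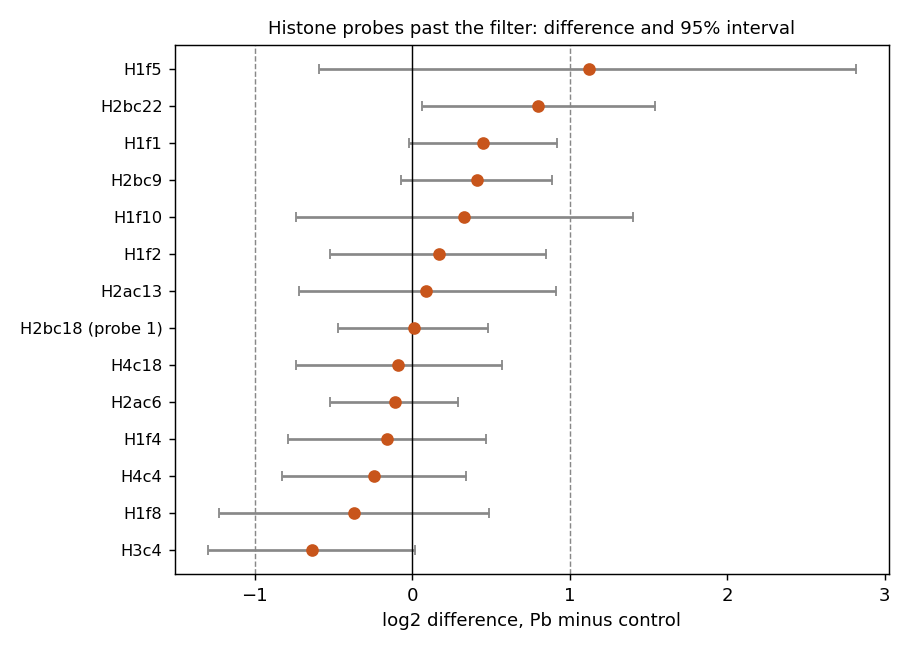
Points are the log2 difference, Pb minus control, of the 14 histone probes past the filter, and bars are 95% intervals from limma. The dashed lines mark 1 log2 unit either way. 13 of the 14 bars cross 0. That of H2bc22 starts at 0.06, but this probe, like that of H1f5, passed the filter only through its Pb values.

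Linker histones compact chromatin between nucleosomes. H1f2 and H1f4 are linker histones of somatic cells. H1f2 was at 2.36 and 1.81 in the Pb arrays, against 2.32, 1.77 and 1.68 in controls, a log2 difference of 0.17 (95% interval -0.52 to 0.85, limma adjusted p = 0.846). H1f4 was at 2.11 and 1.99 in Pb, against 2.65, 1.92 and 2.08 in controls, a difference of -0.16 (-0.79 to 0.47, limma adjusted p = 0.837). The Pb and control values overlapped for both genes. Without position correction the differences of H1f2 and H1f4 were 1.59 and 0.44.

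H1f1, a linker histone of the same cluster, was at 1.23 and 1.50 in Pb, against 0.97, 1.05 and 0.73 in controls, with 0.45 between the group means (log2, SE 0.19, limma adjusted p = 0.622). The groups did not overlap, but the 16 probes within 1 row and 3 columns of it on the array also had a median difference of 0.45, and without position correction its difference was -1.20. H1f5, another somatic linker histone, was at -0.86 and -0.65 in Pb, against -1.10, -3.35 and -1.16 in controls. Its difference of 1.12 (SE 0.70, limma adjusted p = 0.633) was the highest of the 14 and rested on control replicate 2, since it was 0.39 without that array. The mean level of H1f5 lay just above the filter, at percentile 31.6 of all probes, and its control mean of -1.87 under it, so it was tested only because its Pb mean was -0.75.

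The linker histones that are not tied to replication did not separate the groups. H1f10 was at 0.52 and 1.34 in Pb, against 0.18, 1.36 and 0.26 in controls (log2 difference 0.33, limma adjusted p = 0.808). H1f8, of the oocyte, was at -0.19 and -1.33 in Pb, against -0.56, -0.20 and -0.42 in controls (difference -0.37, limma adjusted p = 0.73). One Pb array of H1f8 lay above the controls and the other below. The male germ cell genes H1f6 and H1f7 were under the filter, with differences of 0.31 and -0.22. The H1f6 value of control replicate 1 was not positive as deposited and stands at the floor set for such values. Over the 8 H1 probes the median difference was 0.24.

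H2A carries the acidic patch of the nucleosome surface. H2ac6 and H2ac13 were the H2A probes past the filter. H2ac6 was at -0.03 and -0.22 in Pb, against 0.04, 0.01 and -0.09 in controls, with the smallest SE of the 14 tested probes (log2 difference -0.11, SE 0.17, limma adjusted p = 0.823). Without position correction its difference was 1.49. H2ac13 was at -1.25 and -0.74 in Pb, against -0.99, -1.63 and -0.65 in controls (difference 0.09, SE 0.33, limma adjusted p = 0.934). In both genes the Pb values overlapped those of the controls. H2ac8 was under the filter, with a difference of 0.02, and the median over the 4 H2A probes was -0.05.

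H2ac1, the testis H2A, had the lowest difference of the 26, a log2 value of -1.79 (fold 0.29). It was at -3.54 and -2.57 in Pb, against -1.60, -1.29 and -0.92 in controls, so both Pb spleens lay below all controls. It was under the filter and has no adjusted p here. With no filter it had an unadjusted p of 0.00602 and an adjusted p of 0.754 (limma). The 19 probes around it on the array had a median difference of 0.07, and without position correction its own difference was -1.75. No detection calls were at hand, so it is not known whether any of these values is above background. Of 12 testis germ cell genes, 6 were tested and 0 of these passed the adjusted threshold, and 1 of the 12 (8.33%) had both Pb arrays below all controls, against the 11.9% of all probes.

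H2B pairs with H2A in the nucleosome. Of the 6 H2B differences 5 were above 0, where 18639 of 34949 were over all probes. Both probes of H2bc18, at 0.14 and 0.01, are among these 5, and 3 of the 6 H2B probes were under the filter. The median of the 6 was 0.24, and -0.20 without position correction. Relative to the control mean, the median of the 6 was 0.06 in Pb replicate 1 and 0.43 in Pb replicate 2, against -0.01, 0.00 and 0.04 in the controls. H2bc22 was at -0.95 and -0.82 in Pb, against -2.24, -1.50 and -1.32 in controls. Its log2 difference was 0.80 (SE 0.30, 95% interval 0.06 to 1.54, limma adjusted p = 0.622), above 0 in 2 of 2 Pb arrays. Its limma adjusted p of 0.622 came from an unadjusted p of 0.0382. The mean level of H2bc22 lay at percentile 32.2 of all probes. Its control mean of -1.69 was under the filter level, so it was tested only because its Pb mean was -0.89.

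H2bc9 was at 0.05 and 0.47 in Pb, against -0.18, -0.21 and -0.07 in controls. The groups did not overlap, and their means differed by 0.41 (log2, SE 0.20, limma adjusted p = 0.622), or by -0.43 without position correction. H2bc18 has 2 probes. The one past the filter was at 1.87 and 2.30 in Pb, against 2.07, 2.10 and 2.04 in controls (difference 0.01, 95% interval -0.47 to 0.48, limma adjusted p = 0.99). The other was under the filter, at -1.86 and -1.42 in Pb, against -2.39, -1.69 and -1.26 in controls (difference 0.14). Neither H2bc18 probe separated the groups. H2bc6 was under the filter, at -3.44 and -1.91 in Pb, against -1.90, -2.70 and -2.31 in controls (difference -0.37), and its groups overlapped. H2bc8 was under the filter too, with a difference of 0.34.

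A further probe, listed for 11 H2B genes at once, of which H2bc22, H2bc9 and H2bc6 have a probe of their own here, is no member because it names no single gene. It was at 3.04 and 2.98 in Pb, against 2.91, 2.42 and 2.82 in controls. Both Pb arrays lay above the controls, as they did for 14% of all tested probes, with means 0.29 apart (log2, SE 0.21, 95% interval -0.22 to 0.80, limma adjusted p = 0.654). Without position correction the means of this probe were 1.48 apart. Another probe of several genes, which shares H2bc13 with it, had a difference of -0.13, and its groups overlapped.

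H3 bears many of the modified lysines of chromatin. H3c4 was the H3 probe past the filter, at 0.65 and -0.19 in Pb, against 0.93, 0.85 and 0.83 in controls. Its log2 difference of -0.64 (SE 0.27, 95% interval -1.30 to 0.02) was the lowest among tested members, with a limma adjusted p of 0.622, and lower in 2 of 2 Pb arrays. Most of it came from Pb replicate 2: the difference was -0.22 without that array. Without Pb replicate 1 it was -1.09, with an adjusted p of 0.0213 (limma), and H1f8 had -0.96 with an adjusted p of 0.0449 (limma). In that setting the lone, wider Pb replicate 2 put 2899 of 24464 probes, 11.9%, past the adjusted threshold.

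A probe listed for both H2ac7 and H3c4, with the same source accession as the H3c4 probe, did not show the lower level. It was at 0.60 and 0.84 in Pb, against 0.98, 0.50 and 0.65 in controls (log2 difference 0.01, 95% interval -0.51 to 0.53, limma adjusted p = 0.989). Without position correction its difference was 1.54, and that of the H3c4 probe was -1.50. H3c7 and H3c8 were under the filter, with differences of -0.26 and 0.25, and the median of the 3 H3 probes was -0.26.

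**Figure D3:**
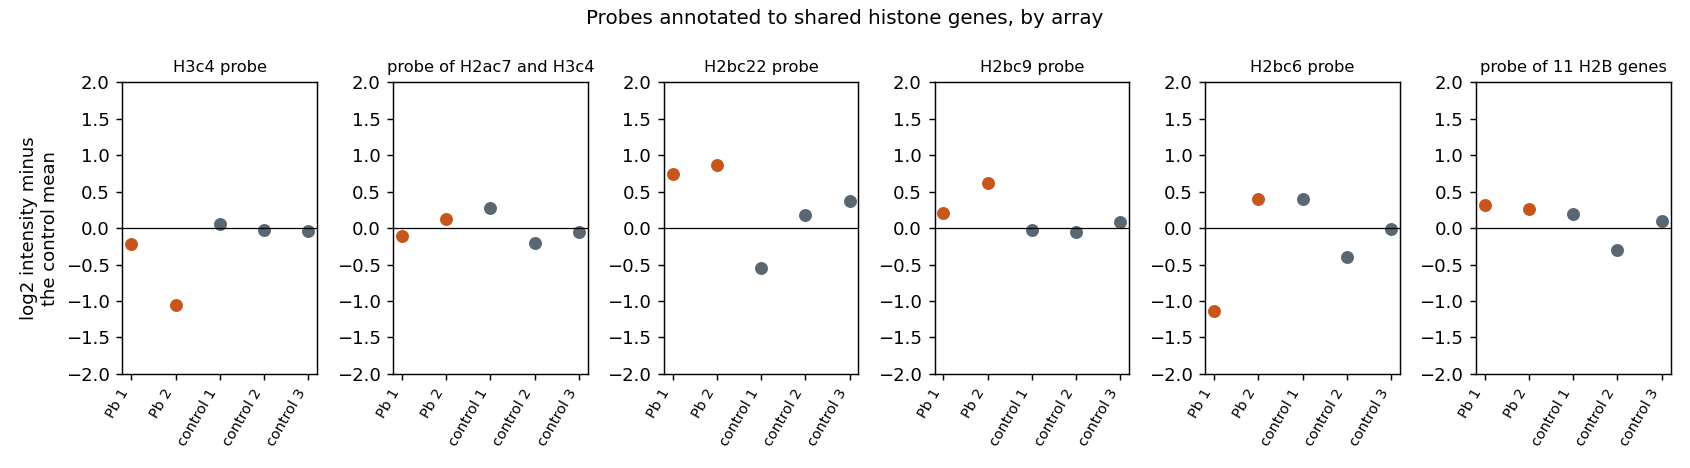
Points are arrays (orange, Pb; grey, control), as log2 intensity minus the control mean, for 6 probes whose annotated genes overlap. The H3c4 probe lay below the controls in both Pb arrays while the probe of H2ac7 and H3c4 did not. The probes of H2bc22, H2bc9 and 11 H2B genes lay above the controls in both, as did 14% of all tested probes. That of H2bc6, also among the 11 genes, overlapped them. The H2bc22 probe passed the filter only through its Pb values. Without position correction the difference was -0.43 for H2bc9 and 1.48 for the probe of 11 genes. A probe of H2bu1-ps, H2bc13 and H2bu2, which shares H2bc13 with the 11 genes, is not shown and had a difference of -0.13.

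H4 is the most conserved core histone. H4c18 was at 0.69 and 0.21 in Pb, against 0.87, 0.20 and 0.55 in controls (log2 difference -0.09, 95% interval -0.74 to 0.57, limma adjusted p = 0.919). H4c4 was at -0.36 and -0.11 in Pb, against -0.07, -0.26 and 0.36 in controls (difference -0.24, 95% interval -0.83 to 0.34, limma adjusted p = 0.737). The Pb and control values overlapped in both. H4c12, H4c14 and H4c8 were under the filter, with differences of 0.04, 0.55 and -0.31. The median of the 5 H4 probes was -0.09, and relative to the control mean it was 0.33 in Pb replicate 1 and -0.25 in Pb replicate 2, against 0.06, -0.27 and 0.07 in the controls. Control replicate 2 thus lay as low as Pb replicate 2.

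Members that are next to each other in RefSeq can be set side by side. H2ac8 and H2bc8, neighbours whose 120 bases before the start overlap on opposite strands, had log2 differences of 0.02 and 0.34. In the run H3c4, H4c4, H2bc6, H1f4 and H2ac6, each next to the one before, the differences were -0.64, -0.24, -0.37, -0.16 and -0.11. All 5 were below 0, where 18639 of 34949 differences over all probes were above 0. Without position correction the 5 were -1.50, -0.88, -0.62, 0.44 and 1.49, so the shared sign depends on that correction. H2bc6 was under the filter, none of the 5 passed, and H2bc9, between H3c8 and H3c7, had 0.41 against 0.25 and -0.26. This run was noticed after its values were seen.

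The genes that make, carry and replace these histones did not pass either. Of 30 genes of histone mRNA processing, 30 were tested and 0 passed in either direction, with a median log2 difference of -0.03. Slbp, which binds the stem-loop, was at 4.25 and 5.28 in Pb, against 4.78, 4.49 and 4.51 in controls (difference 0.17, limma adjusted p = 0.862). Npat, the coactivator of histone gene clusters, had -0.02 (limma adjusted p = 0.974), and Lsm11, of the U7 particle that cuts histone messages, had 0.32 (limma adjusted p = 0.762). The smallest p in the list were those of Ddx19b, an RNA helicase, with 0.73, and Ncbp2, of the cap-binding complex, with -0.85, both with a limma adjusted p of 0.622.

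Of 24 histone chaperone and transport genes, 23 were tested and 0 passed. The chaperones Nasp and Asf1b had differences of -0.20 and -0.08, and the smallest p were those of Set (0.63, limma adjusted p = 0.622) and the importin Ipo4 (0.38, limma adjusted p = 0.627). Of 11 replication-independent histone genes, 9 were tested and 0 passed. H2ax, phosphorylated at DNA breaks, had 0.47 (limma adjusted p = 0.641), the variant H2az1 0.25, H3f3a 0.34 and H3f3b 0.14, and the smallest p was that of H2bfm (-0.36, limma adjusted p = 0.622). Values of both groups overlapped for H2ax, H2az1, H3f3a and H3f3b.

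Genes of S phase are the natural companion of these histones. Of 47, 45 were tested and 0 passed. Pcna, the sliding clamp of DNA polymerases, was at 6.43 and 6.91 in Pb, against 6.09, 6.12 and 6.46 in controls (log2 difference 0.45, limma adjusted p = 0.622). Mcm2, of the replicative helicase, had 0.59 (limma adjusted p = 0.66), Rrm2, which makes deoxynucleotides, 0.11 (limma adjusted p = 0.881), and the proliferation marker Mki67 -0.37 (limma adjusted p = 0.622). The smallest p were those of Pold1 (0.72) and Ccne2 (-0.49), both with a limma adjusted p of 0.622.

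The Pb arrays took opposite sides in the S phase list and not in the histone set as a whole. Relative to the control mean, the median of the 47 S phase genes was -0.34 in Pb replicate 1 and 0.46 in Pb replicate 2, against -0.08, -0.02 and 0.09 in the controls. The 23 erythroid genes had -0.23 and 0.45 in Pb, against 0.03, -0.13 and 0.09 in controls. The 26 histone probes had 0.01 and 0.03 in Pb, against 0.03, 0.00 and 0.00 in controls. The histone classes differed within that median. In Pb replicates 1 and 2, H4 had 0.33 and -0.25, H2B 0.06 and 0.43, and H3 -0.22 and -0.49. The chaperone list, at -0.09 and 0.33, and the mRNA processing list, at -0.11 and 0.09, also had opposite signs in the Pb arrays. So did the replication-independent histones, at -0.11 and 0.11, and the T cell list, at 0.10 and -0.15. The B cell, testis germ cell and pancreatic lists did not. The histone and S phase sets are not alike in level, since 12 of the 26 histone probes were under the filter, against 2 of the 47 S phase genes. The 14 histone probes past the filter had 0.06 in both Pb arrays. The difference between the histone and S phase sets was not tested.

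**Figure D4:**
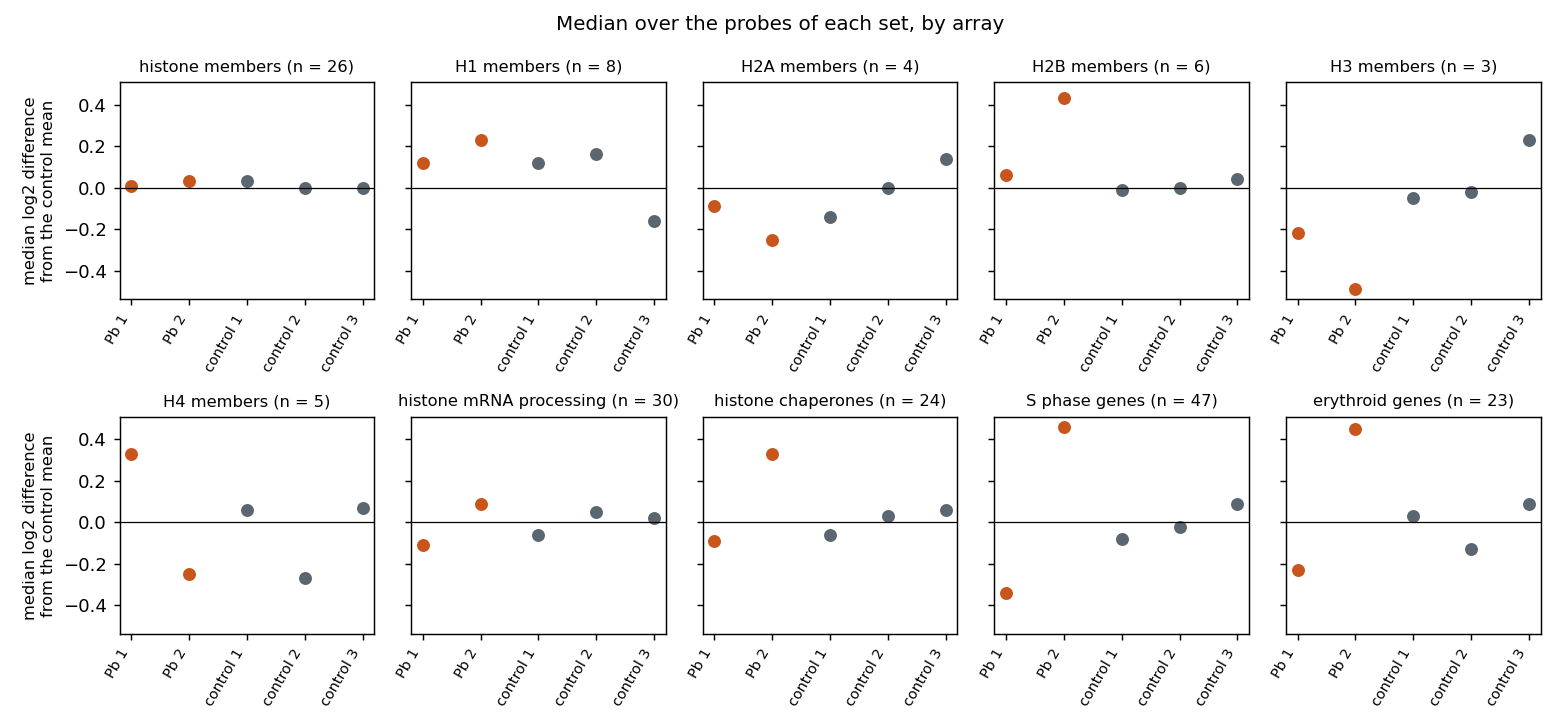
Each panel is 1 set of probes, and each point is the median over the set of log2 intensity minus the control mean, in 1 array (orange, Pb; grey, control). The median of the 26 histone probes stays within 0.03 of 0 in every array, while that of the S phase genes is at -0.34 and 0.46 in Pb replicates 1 and 2. The medians of the histone classes spread more widely, from -0.49 (H3) to 0.43 (H2B), both in Pb replicate 2.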

How the data were processed

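Total RNA from 6 spleens was hybridised to 1-colour CodeLink arrays (Cy5), per the labels. The authors deposited linear probe intensity values, whose array medians lie between 0.972 and 0.987. How they were normalised, and with which software, is not given in the sources used here. Precision is limited by how few arrays there are, and labels give the samples as single animals, so p-values measure only the spread between these samples.

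The members, lists and tests were chosen with earlier results of these data known. Of 35587 probes, 21615 had 1 symbol, 681 several and 13291 none listed, and symbols come from the platform annotation. Values that were not positive (151 to 711 per array) took the 1st percentile of the positive ones before log2. The last array rows (638 probes) and Pb replicate 3 were left out, leaving 34949 probes. A smooth surface of array row by level and row by column (mgcv 1.9.3; 40, 6 and 8 basis functions, 2 rounds) was removed from each array, relative to the mean of controls and Pb replicate 1, so agreement with the controls is partly built in. Differences were tested with limma 3.58.1 in R 4.3.3 (two-sided), after a filter at the 30th percentile of the mean level, and the script was tested on simulated data. Genes of other lists have 1 probe each, the one with the highest mean. The lists hold 35 mRNA processing, 34 chaperone, 27 replication-independent, 55 S phase and 35 erythroid symbols, older names included, and 3 of the replication-independent list that are members were left out there.

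Named members are those past the threshold, the 2 brightest per class, the 4 highest and 4 lowest tested differences, those with groups apart by at least 0.58, and all probes of a gene with several. In other lists they are set genes and the 2 smallest p. Other members named, H2ac1 among them, were chosen after their values were seen. Alternatives were another array set, correction, filter, floor, scaling, weights, replicate block and leaving out each array.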

Additional observations from a re-analysis of the deposited data

How the results depend on the processing

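With 16 planned settings, 0 histone probes passed the adjusted threshold in 15, and 2 passed without Pb replicate 1, so the range over arrays left out was 0 to 2. None of the 15 named probes had a call to lose. Of their 240 comparisons, 195 were tested in both settings, and 193 of these stayed above the threshold. Another 40 were not tested in the alternative and 5 were tested only there, with 0 past the threshold. Of the 240 differences 32 changed sign. The 2 that gained a call were H3c4 and H1f8 without Pb replicate 1. The count at an unadjusted p under 0.05, 1 here, was 2 without position correction, 2 with a filter at the 50th percentile, 0 where arrays were weighted, and 0 to 5 when any 1 array was dropped. The gene also changed: where the count was 1 it was H2bc22 in most settings, but with the filter on the control mean H2bc22 was not tested and the gene was H2ac1, with a difference of -1.79, which that filter admits through its higher controls. It was also H2ac1 with no filter, H3c4 with the pseudocount (-0.61) and H1f2 in the 6 arrays as deposited (2.16). The 6 probes with groups apart became 3 in the 6 arrays as deposited, 8 when any 1 control array was dropped and 13 when either Pb array was dropped. Groups of fewer arrays are apart more easily. The share over all probes in these settings is not given here, so these counts show nothing particular to histones. Among the 21 replication-dependent members, a setting chosen after seeing the data, 5 had groups apart. Of these, 4 (19%) were above and 1 (4.76%) below, against 13% and 11.9% of all probes. The 15 probes past the adjusted threshold over the whole array became 0 in the 6 arrays as deposited, 0 without position correction, 0 without the filter, 5 with the filter on the control mean, 7 where arrays were weighted, 7 with the replicate block, and 2 to 2899 when any 1 array was dropped.

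The median log2 difference of the members, 0.03, was 0.62 in the 6 arrays as deposited, against 0.02 over all probes there, which include the array whose values do not follow the probes. It was -0.03 with the coarser surface, -0.01 with the pseudocount of 0.1, -0.03 with scaling to the 75th percentile, 0.07 with quantile normalisation, 0.05 where arrays were weighted, -0.04 with the replicate block and -0.05 to 0.07 when any 1 array was dropped. By class, the 6 arrays as deposited gave 0.44 for H1, 1.10 for H2A, 0.69 for H2B, 0.21 for H3 and 0.93 for H4, and 5 arrays without position correction gave 0.92 for H2A, -0.20 for H2B and -0.64 for H3. Dropping any 1 array, the medians ran over 0.09 to 0.25 for H1, -0.29 to -0.09 for H2A, 0.06 to 0.54 for H2B, -0.44 to -0.17 for H3, -0.32 to 0.33 for H4. The sign of every class median except H1 thus depends on the setting. The cause was not tested.

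Nothing in the labels ties arrays with the same replicate number to a litter or day. Whether animals of a group shared a litter is not known either. The r between deviations of arrays with the same number from their group means was 0.03 for number 1 and 0.00 for number 2. With 2 Pb arrays these deviations mirror each other, so the r values are not independent. They do not bear on litters within a group. Levels near the bottom of the arrays, 12 of the 26 probes under the filter, limit what can be seen of them.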

Other observations

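Some histone probes lie outside the symbol rule. H4f16, an H4 gene formerly Hist4h4, was at 4.38 and 3.79 in Pb, against 4.07, 3.20 and 3.98 in controls (log2 difference 0.34, limma adjusted p = 0.737). H2aw, an H2A gene formerly Hist3h2a, had a difference of 0.00 (95% interval -0.55 to 0.55, limma adjusted p = 0.996), and H4bc24, formerly Hist1h2br, had -0.03 (limma adjusted p = 0.976). The transcribed pseudogene H2af-ps2, formerly Hist1h2al, was under the filter, with 0.33. None of these 4 separated the groups.

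Of 6 probes listed for several genes, at least 1 of them a histone of the series, all 6 passed the filter and 0 the adjusted threshold. Besides the H2B probe and the H2ac7 and H3c4 probe above, a probe of H2ac18 and H2ac19 had a log2 difference of -0.06 (limma adjusted p = 0.946), one of H4c1, H4c6 and H4c3 had 0.01 (limma adjusted p = 0.994), one of H4c17 and H4c12 had 0.19 (limma adjusted p = 0.843), and one of H2bu1-ps, H2bc13 and H2bu2 had -0.13 (limma adjusted p = 0.836).

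The cell type lists set beside the histones had 0 genes past the adjusted threshold among 23 erythroid, 13 B cell and 13 T cell genes and among the 6 of 12 testis germ cell genes that were tested (limma). At an unadjusted p under 0.05 there were 2, both T cell genes: Cd3e (log2 difference 0.74) and Cd247 (0.62), chains of the T cell receptor complex, each with a limma adjusted p of 0.622. That is 2 of 55 tested genes, where 3.88% of all probes were higher and 3.3% lower at that threshold. The smallest p in the other lists were those of Blk (0.53) and Spib (0.32) in B cells, Ermap (0.29) and Car1 (-0.40) in erythroid cells, and Prm1 (1.32) and Odf1 (0.36) in germ cells, with limma adjusted p from 0.622 to 0.666. The probe of the chaperone Chaf1b lies in the array rows left out and gives no value.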
